A study of Mus musculus with 16 samples.

Results

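The 37 genes described here act in germ cells, in meiosis and in the piRNA pathway. They were taken as a fixed list of symbols and matched through Ensembl gene identifiers, and all 37 were present among the 55335 identifiers counted in the libraries with an age and the 54532 counted in the libraries without one. The values are read counts per gene from bulk RNA sequencing of CD4 and CD8 double-positive (DP) thymocytes, the main immature T cell stage of the mouse thymus, isolated by cell sorting. The labels gave 5 groups: young wild-type (WT) mice with 3 libraries, old WT with 4, young mice labelled METTL3 KO with 3, and WT and METTL3 KO mice with no age stated, 3 libraries each. METTL3 is the enzyme that places N6-methyladenosine on messenger RNA. The labels give no strain, no age in weeks or months, no Cre driver, no deleted exon and no statement of how many mice made up a library, so p-values measure the spread between these libraries.

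In meiosis, SPO11 cuts DNA, DMC1 pairs the broken ends with the homologous chromosome, cohesins with REC8 and STAG3 hold the chromatid axes, and SYCP and SYCE proteins build the synaptonemal complex between homologs. PIWI proteins and their Tudor-domain partners silence transposons with piRNAs. In somatic cells many of these genes are kept silent by promoter DNA methylation and by a variant Polycomb complex that holds MGA, MAX and E2F6, which bind E-box and E2F-type motifs.

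Promoter windows, 250 bases before and 50 after the transcription start (RefSeq, GRCm38.p6), were found for 30 of the 37 genes. The 6 printed below show the motif classes and the spread of CpG content: Hormad1, Piwil1, Sycp2 and Stag3 passed a test described further on, and Tdrd5 and Brdt were among the most highly counted genes of the list. Each line gives the 250 bases before the start, 5′ to 3′, and capitals mark CACGTG (E-box) or TTCCCGC (E2F-type, printed GCGGGAA where it lies on the other strand). The stretches are chr3:95559427-95559676 (plus strand) for Hormad1, chr5:128735996-128736245 (plus strand) for Piwil1, chr2:178407659-178407908 (minus strand) for Sycp2, chr5:138280259-138280508 (plus strand) for Stag3, chr1:156303349-156303598 (minus strand) for Tdrd5 and chr5:107330944-107331193 (plus strand) for Brdt.
Hormad1: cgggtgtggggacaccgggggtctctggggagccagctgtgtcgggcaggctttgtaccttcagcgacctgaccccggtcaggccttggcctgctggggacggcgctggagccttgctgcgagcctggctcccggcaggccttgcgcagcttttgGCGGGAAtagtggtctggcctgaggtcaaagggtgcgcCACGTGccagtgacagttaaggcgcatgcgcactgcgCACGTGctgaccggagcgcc
Piwil1: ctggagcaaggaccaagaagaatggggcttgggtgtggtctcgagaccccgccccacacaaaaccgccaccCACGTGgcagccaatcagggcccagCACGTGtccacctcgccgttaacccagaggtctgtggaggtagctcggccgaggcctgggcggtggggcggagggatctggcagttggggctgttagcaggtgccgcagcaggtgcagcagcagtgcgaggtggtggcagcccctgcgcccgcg
Sycp2: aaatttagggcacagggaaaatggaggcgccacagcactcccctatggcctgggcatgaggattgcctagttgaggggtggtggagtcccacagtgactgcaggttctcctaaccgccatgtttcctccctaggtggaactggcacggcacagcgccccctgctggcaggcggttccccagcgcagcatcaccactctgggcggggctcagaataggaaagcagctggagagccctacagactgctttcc
Stag3: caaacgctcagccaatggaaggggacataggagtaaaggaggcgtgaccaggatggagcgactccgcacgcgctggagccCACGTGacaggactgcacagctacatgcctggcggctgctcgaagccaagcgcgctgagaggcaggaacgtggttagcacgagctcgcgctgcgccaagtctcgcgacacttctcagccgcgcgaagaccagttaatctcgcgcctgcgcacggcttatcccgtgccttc
Tdrd5: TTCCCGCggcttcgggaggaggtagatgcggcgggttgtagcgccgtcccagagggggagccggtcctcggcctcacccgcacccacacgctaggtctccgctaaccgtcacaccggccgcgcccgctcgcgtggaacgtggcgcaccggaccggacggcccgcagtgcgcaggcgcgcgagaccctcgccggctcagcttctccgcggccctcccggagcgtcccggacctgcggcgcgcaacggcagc
Brdt: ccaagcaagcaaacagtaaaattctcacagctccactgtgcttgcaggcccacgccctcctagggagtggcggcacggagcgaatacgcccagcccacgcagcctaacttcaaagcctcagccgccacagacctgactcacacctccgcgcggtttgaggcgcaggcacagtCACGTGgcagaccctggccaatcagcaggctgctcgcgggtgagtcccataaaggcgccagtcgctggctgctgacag
The window of Stag3 also held TTCCCGC, beginning 3 bases before the start and so running past the printed stretch. Hormad1 carried 2 E-boxes and 1 E2F-type motif, Piwil1 2 E-boxes, Stag3 and Brdt 1 E-box each, Tdrd5 1 E2F-type motif, and Sycp2 neither. The 300-base windows held 24 CpG dinucleotides in Hormad1, 18 in Piwil1, 10 in Sycp2, 30 in Stag3, 48 in Tdrd5 and 23 in Brdt.

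Where a gene had several windows listed, the first was used. Searched on both strands, CACGTG was present in 12 of the 30 windows (40%) and in 7.24% of the windows of all 27025 genes in the table. TTCCCGC was present in 8 (26.7%) and in 4.66% of all. At least 1 of these motifs, which can share 1 letter at their ends, stood in 16 windows (53.3%) against 11.4% of all. At least 15 CpG dinucleotides were found in 22 windows (73.3%) against 35.2% of all, with medians of 18.5 and 7. Among windows with at least 15 CpG, 68.2% of those of the listed genes and 20.8% of those of all genes held either motif. Over every window listed, 51.35% of those of the listed genes and 11.29% of all held either motif. Syce2 held neither motif in its first window and both in its second. A match describes these letters only.

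**Figure D1:**
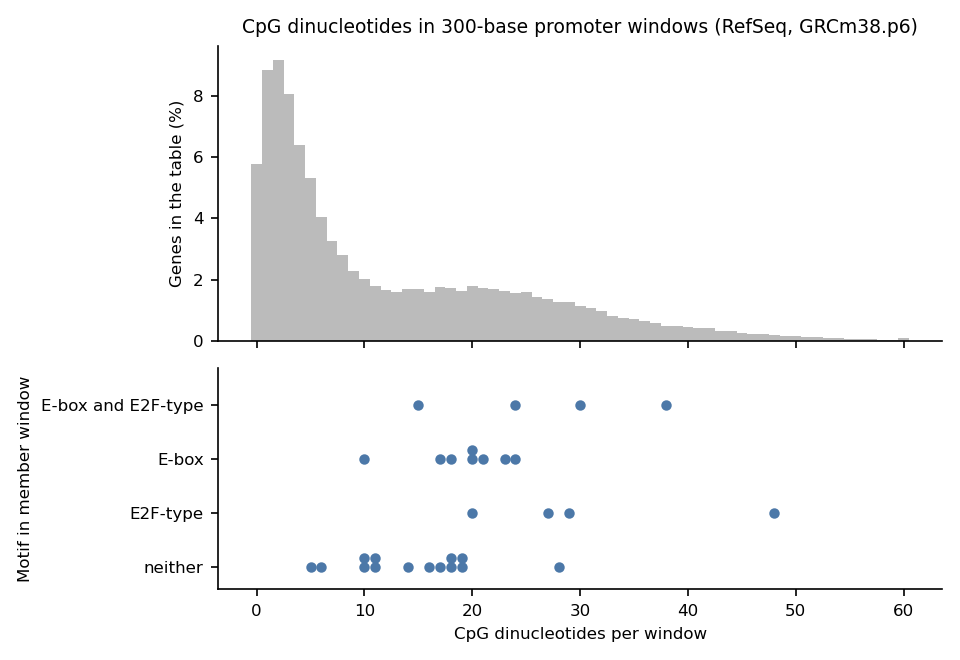
Top, distribution of CpG dinucleotides per 300-base promoter window over all 27025 genes (percent of genes, windows above 60 CpG counted at 60). Bottom, the first listed windows of 30 germline and meiosis genes, 1 point each, placed by CpG count and by which motif they hold. Most lie to the right of the main peak of all genes, with a median of 18.5 CpG against 7.

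Gene counts summed to between 9781368 and 10307780 per library with an age, to between 15927134 and 16167074 in WT without an age and to between 10575795 and 13740694 in KO without an age. Reads that the counting assigned to no gene (no feature) made up 53.3% to 55.2% of gene plus no-feature counts in libraries with an age. That share was 16.3% to 17.0% in WT without an age and 28.7% to 35.5% in KO without an age. Whether introns or the opposite strand were left out of genes is not given, so it need not measure reads outside genes. Because the sets of libraries differ in this way, each comparison was made within a set. Mettl3 averaged 63.8 CPM (counts scaled to a common library total, after TMM) in young WT and 63.7 in the young libraries labelled KO (log2 change -0.00 ± 0.08, SE), so the gene count showed no loss there, and any direction below rests on the label. In the libraries without an age it fell from 48.9 to 32.7 CPM (log2 change -0.58 ± 0.18, adjusted p = 0.0189). Read from Xist and Y-linked genes, sexes were mixed in the groups with an age, while without an age the 3 WT libraries were male and 2 of the 3 KO libraries female. The summed level of 10 DP markers was 11528 to 15352 CPM in libraries with an age, 14434 to 16177 in WT without an age and 7888 to 9609 in KO without an age.

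Most of the 37 genes were silent or nearly so in these thymocytes. Mael and Asz1, piRNA pathway proteins of the germline, had 0 counts in all 16 libraries. Mov10l1, a piRNA helicase, Syce3 of the synaptonemal complex, Tdrd1 and Piwil1 of the piRNA pathway and Taf7l, a germline TFIID subunit, had 0 counts in all 10 libraries with an age. In those 10 libraries 19 genes stayed under 5 counts throughout and 14 reached 10 counts at least once, while 27 reached 10 counts in a library without an age. A count of 0 over the 3 young WT libraries allows up to 0.0994 CPM, taking 3 counts as the limit, and covers counting error only.

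At the other end, Spo11, the meiotic DNA-cutting enzyme, had the highest mean level of the 37 genes in young WT. Its counts were 1612, 1678 and 1655 in young WT, or 164 ± 6.13 CPM (SD, n = 3). Divided by exonic length this was 41.8 CPM per kb, above 94.7% of genes with a count in young WT. Tdrd5, a Tudor-domain protein of male germ cells, came next with 1637, 1555 and 1569 counts, or 158 ± 1.77 CPM and 22.7 CPM per kb. It lies above 89.0% of genes per kb, and 176 bp of its exons (2.54%) overlap an antisense gene. Brdt, the testis member of the BET bromodomain family, had 300, 281 and 285 counts and 5.61 CPM per kb. Spo11, Tdrd5 and Brdt made up 83.0% to 94.0% of all counts of the 37 genes in every library, so a summed level of the list mostly reports these 3.

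Below them came a middle tier. Syce2, a central element protein of the synaptonemal complex, had 160, 133 and 173 counts in young WT. Stag3 (69, 110 and 50), Dmc1 (68, 61 and 71) and Msh5, a crossover factor (59, 66 and 51), followed, with group means of 7.59, 6.63 and 5.83 CPM. Tex15, a factor in piRNA-directed methylation, had 29, 41 and 34 counts, Rec8 25, 20 and 14, and Tex11, an X-linked crossover protein, 30, 10 and 14. Sycp3 of the chromosome axis had 13, 17 and 10 counts, but 660 of its 1264 exonic bp are shared with Chpt1 on the opposite strand, which had 93.0 to 120 counts per library on average over the groups, and no source used here states whether the counting used strand. The levels of Sycp3 are therefore uncertain.

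**Figure D2:**
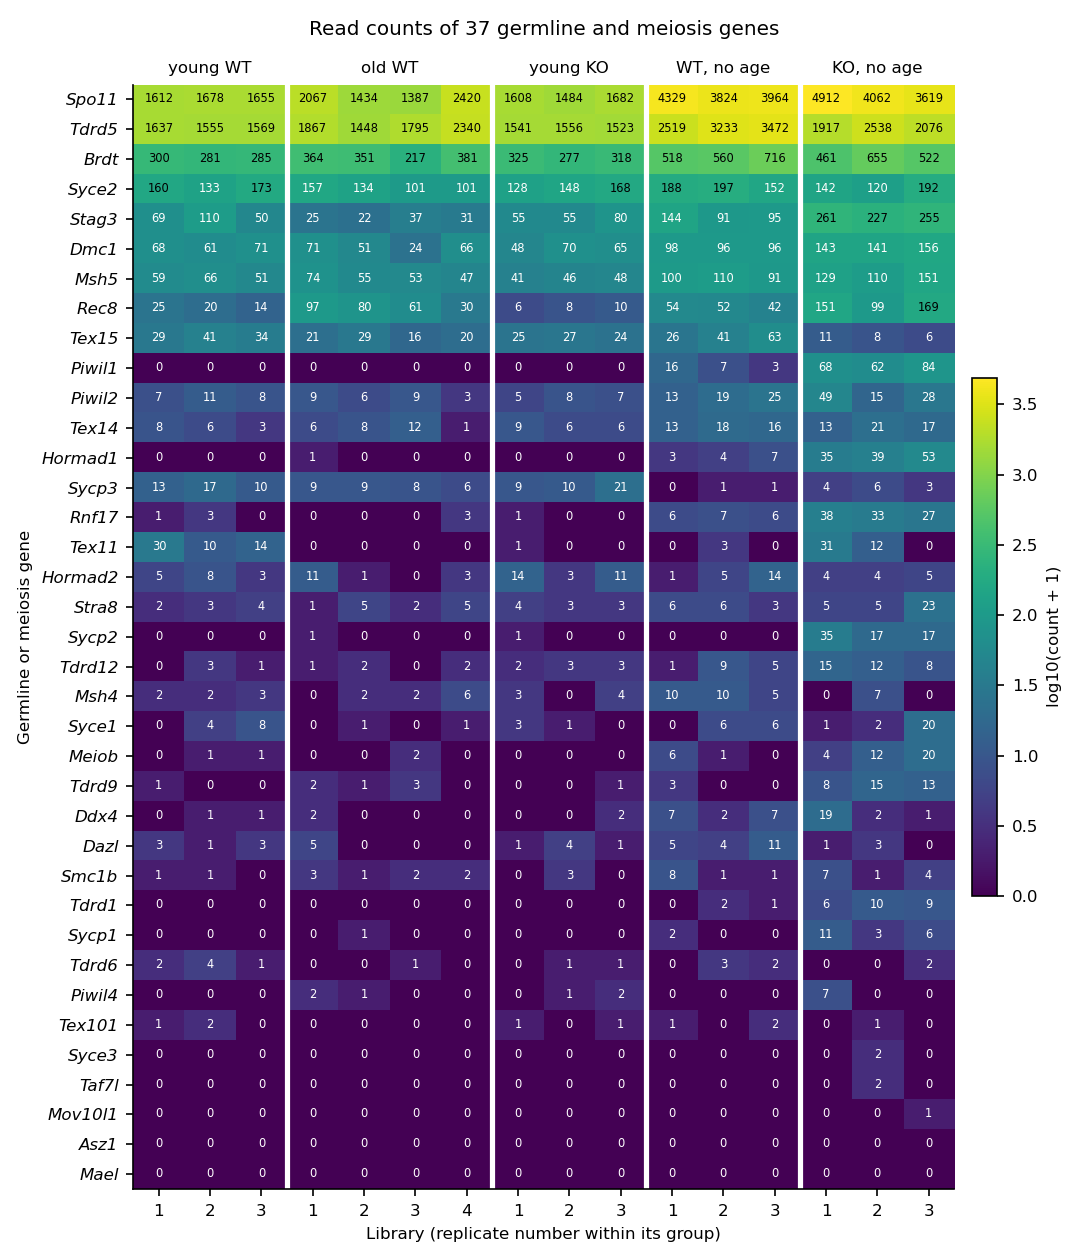
Read counts of the 37 germline and meiosis genes (vertical, ordered by total count) in the 16 libraries (horizontal, by group and replicate number); each cell prints the count and its colour gives log10(count + 1). Spo11, Tdrd5 and Brdt are high in every library, Mael and Asz1 are at 0 throughout, and Sycp2, Hormad1 and Piwil1 have their highest counts in KO without an age.

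The number of members with at least 5 counts was 13 to 14 per library in young WT, 12 to 14 in old WT and 12 to 13 in the young libraries labelled KO. Without an age it was 18 to 19 in WT and 23 to 24 in KO. After all libraries were thinned to 9781368 gene counts, the WT libraries without an age had 14 to 15 and the KO libraries 20 to 23. Before thinning, the KO libraries also had more genes with at least 1 count, 24778 to 25895 against 21748 to 23094 in WT. The number of all genes with at least 5 counts after thinning was not worked out. These values therefore do not show whether the higher number is particular to the members.

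Old WT was first compared with young WT. Tex11 had no count in any old library, Rec8 was higher and Stag3 lower in each old library than in any young WT library, and the abundant Spo11, Tdrd5 and Brdt did not pass the test. Of the 37 genes, 12 passed the filter on low counts, and 1 of them, Tex11, passed at an adjusted p under 0.05. Over all 14228 genes tested, 0.127% were called lower and 0.127% higher (0.253% in either direction).

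Tex11 (chrX:100838648-101059667 in mm10, 31 exons after merging) was counted 30, 10 and 14 times in young WT replicates 1 to 3, and 0, 0, 0 and 0 times in the 4 old WT libraries. The groups did not overlap, and with 3 counts over the old group as the limit the level was at least 23.8-fold lower (adjusted p = 0.0213). Leaving out any single young WT replicate ended the call (adjusted p = 0.0974, 0.0657 and 0.111), as did fitting young and old WT alone (0.0812). Tex11 passed the filter through the young WT libraries. Its neighbour Dlg3, a scaffold protein gene 20238 bp away, had a log2 change of 0.01 ± 0.11.

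Rec8 codes for the meiotic kleisin, the subunit that closes the cohesin ring. Young WT gave 25, 20 and 14 counts, and old WT 97, 80, 61 and 30, or 1.95 ± 0.51 and 6.71 ± 2.81 CPM. Every old library lay above every young WT library, and the log2 change was 1.78 ± 0.37 (SE), which missed the threshold (adjusted p = 0.0942). It passed with no filter on low counts (0.00136; over all genes 0.197% were then called higher and 0.0869% lower), with DESeq2 (0.00533) and without old WT replicate 4 (0.00589). Ipo4, an importin gene that lies 5 bp from Rec8 on the opposite strand, had a log2 change of 0.35 ± 0.23 (adjusted p = 0.557). Rec8 shares no exonic bases with another gene in the annotation. Whether any Ipo4 reads entered the Rec8 count was not tested, and no source used here states whether the counting used strand.

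Stag3, the meiotic counterpart of the cohesin subunits STAG1 and STAG2, gave 69, 110 and 50 counts in young WT, and old WT gave 25, 22, 37 and 31. The old libraries all lay lower, with a log2 change of -1.39 ± 0.29 that missed the threshold (adjusted p = 0.0969). It passed with no filter (0.000852), with DESeq2 (0.00549) and narrowly without old WT replicate 3 (0.0499). Rec8 and Stag3, which work in 1 meiotic cohesin complex, thus had values on opposite sides of 0.

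By the plainer criterion that the groups do not overlap and the higher group has at least 5 counts in every library, Rec8 was higher with age, and Tex11, Stag3 and Sycp3 were lower. That criterion was met by 2.95% of all genes with a count in the higher direction and by 2.28% in the lower. Sycp3 had 9, 9, 8 and 6 counts in old WT. Its log2 change was -0.72 ± 0.39 (adjusted p = 0.480). Tex15 had 21, 29, 16 and 20 counts in old WT against 29, 41 and 34 (log2 change -0.68 ± 0.26, adjusted p = 0.344).

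The other tested genes differed by less. Spo11 had 2067, 1434, 1387 and 2420 counts in old WT, or 182 ± 43.8 CPM, a wider spread than in young WT with a log2 change of 0.15 ± 0.15. Tdrd5 had 1867, 1448, 1795 and 2340 counts (0.24 ± 0.12) and Brdt 364, 351, 217 and 381 (0.19 ± 0.14). In Syce2 the old WT counts were 157, 134, 101 and 101 (-0.33 ± 0.17), in Dmc1 71, 51, 24 and 66 (-0.33 ± 0.28), and in Msh5 74, 55, 53 and 47 (-0.03 ± 0.20). Hormad2, a chromosome axis protein, gave 5, 8 and 3 counts in young WT, and old WT gave 11, 1, 0 and 3 (-0.50 ± 0.86). None of these passed the test, with adjusted p from 0.440 in Tdrd5 to 0.970 in Msh5. The median log2 change over all genes tested was 0.01.

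Markers of other cells were read in the same libraries. No marker of the B cell, myeloid or thymic epithelium lists was called in old WT by edgeR's quasi-likelihood test, where 7 of 8, 2 of 4 and 0 of 4 tested had an unadjusted p under 0.05; DESeq2 called 4 B cell markers higher and limma-voom none. The summed level of 8 B cell markers was 436 to 490 CPM in young WT and 475 to 1737 in old WT, that of 7 myeloid markers 17.7 to 22.1 and 24.4 to 116, and that of 11 thymic epithelium markers 31.7 to 40.8 and 35.1 to 216 CPM. All 3 tops were in old WT replicate 3; the other old libraries had 475 to 922 CPM of B cell, 24.4 to 25.6 of myeloid and 35.1 to 49.6 of epithelial markers. Foxn1, Fezf2 and Krt5 were at 0 in every young WT library and no epithelial marker was at 0 throughout old WT. The part of these cells in the values of Rec8 and Stag3 was not tested; fewer cells of a type and less RNA per cell cannot be told apart in bulk libraries.

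**Figure D3:**
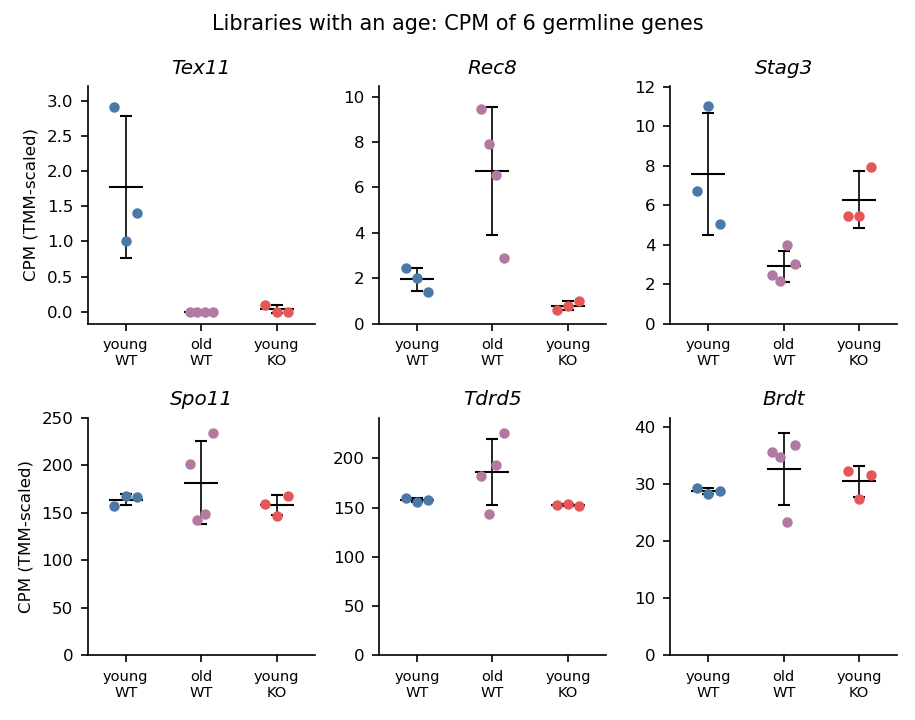
CPM (vertical axes, scaled by TMM, each from 0) of 6 members in the 10 libraries with an age; points are libraries, long bars the mean and whiskers the SD. Tex11 is at 0 in all 4 old WT libraries, Rec8 is higher and Stag3 lower in old WT than in young WT without overlap, and Spo11, Tdrd5 and Brdt overlap between the groups.

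The young libraries labelled METTL3 KO were then compared with the same young WT libraries, so this comparison shares its controls with the one above. No member passed: 0 of 12 tested were called by edgeR's quasi-likelihood test, against 0 of 14228 genes, or 0%. The same counts of 0 came from DESeq2 and limma-voom. At an unadjusted p under 0.05 stood 2 of the 12, Tex11 and Rec8, and 88 of all genes.

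In the libraries labelled KO, Tex11 was counted 1, 0 and 0 times. Summed, that is a 54.1-fold lower level with a counting interval of 9.31 to 2177, and an unadjusted p of 0.000161 (adjusted p = 1). With no filter on low counts it was the 1 gene of 29923 that passed (0.00334%, adjusted p = 0.00879). Rec8 had 6, 8 and 10 counts, each below the 14 to 25 of young WT, with a log2 change of -1.29 ± 0.47 (adjusted p = 1). Against the same young WT libraries, old WT had 30 to 97 counts of Rec8 and 0 of Tex11.

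With at least 5 counts in every library of the higher group, Tex11, Rec8, Msh5, Tex15 and Tdrd5 were lower in every library labelled KO than in any young WT library, and no member was higher. Tdrd6 was also lower without overlap but at most 4 counts, under that minimum. The criterion was met by 2.68% of all genes in the lower and 2.58% in the higher direction. The counts in the libraries labelled KO were 41, 46 and 48 for Msh5 (log2 change -0.39 ± 0.21), 25, 27 and 24 for Tex15 (-0.46 ± 0.27) and 1541, 1556 and 1523 for Tdrd5 (-0.05 ± 0.13). For Tdrd5 this lack of overlap stands for 153 ± 1.15 against 158 ± 1.77 CPM, a small difference between tight groups.

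Stag3 had 55, 55 and 80 counts in the libraries labelled KO, within the young WT range. Spo11 had 1608, 1484 and 1682, Brdt 325, 277 and 318, Syce2 128, 148 and 168, and Dmc1 48, 70 and 65. Sycp3 had 9, 10 and 21 counts and Hormad2 14, 3 and 11. Log2 changes of these 7 ran from -0.27 ± 0.30 in Stag3 to 0.79 ± 0.82 in Hormad2, with none past the test.

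The libraries without an age gave a different picture. In METTL3 KO, 5 genes that averaged under 1 CPM in WT were called higher: Sycp2, Hormad1, Piwil1, Rnf17 and Tdrd9. The cohesin genes Rec8 and Stag3 and the recombination genes Dmc1 and Msh5 were also higher, and Tex15 was lower. Of 16 members tested, 9 were called higher and 1 lower, against 29.9% higher and 24% lower over all 16432 genes tested. The 5 genes under 1 CPM in WT passed the filter on low counts through the KO libraries and so had to differ. Of all tested genes at that level, 73.5% were called higher. The adjusted p-values printed below for these 5 come from this filtered fit and are therefore no separate support for a rise.

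The fit with no filter on low counts kept every gene with a count in any library of this set. Sycp2, Piwil4, Mov10l1, Syce3 and Taf7l had 0 counts in WT and so still entered through KO counts alone. Genes outside the list entered by the same rule. There 9 of 35 members (25.7%) were called higher against 17.1% of 33031 genes. Among those under 1 CPM in WT, 6 of 25 members (24%) were called higher against 20.2% of genes at that level. The share of silent germline genes that rose was thus near the share of all silent genes. Of members at 5 CPM or more in WT, 2 of 7 were called higher against 10.5% of such genes.

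**Figure D4:**
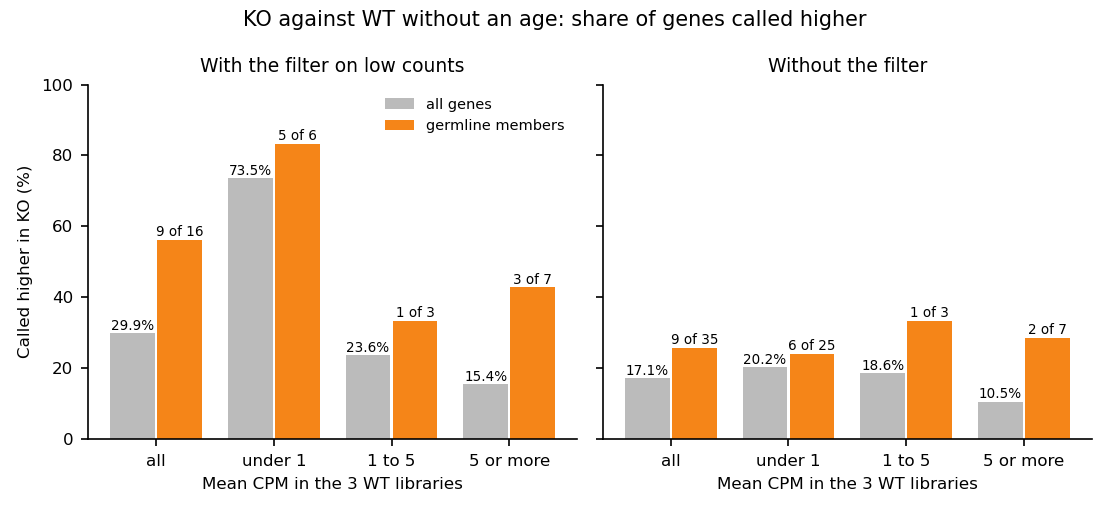
Percent of genes called higher in METTL3 KO than in WT without an age (vertical) by mean CPM in WT (horizontal), for all genes (grey) and for the germline and meiosis genes (orange, with their counts), with the filter on low counts (left) and without it (right). Without the filter, members under 1 CPM stand at 6 of 25, close to the 20.2% of all such genes.

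Among the chromosome axis genes, Sycp2, a lateral element protein of the synaptonemal complex, had 0, 0 and 0 counts in WT and 35, 17 and 17 in KO. With 3 counts over the WT group as the limit this was at least 29.0-fold higher (adjusted p = 0.000608). Of 5844 genes at 0 in every WT library and with any count in KO, 42 (0.719%) had at least 10 counts in every KO library. Piwil4, Mov10l1, Syce3 and Taf7l, also at 0 in WT, did not. The share describes this rule over all such genes, most of them not matched to Sycp2 in level, and is no test of Sycp2. Sycp2 was also near silent in the libraries with an age, where its largest count was 1.

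Hormad1, a HORMA-domain protein of the unsynapsed axis, had 3, 4 and 7 counts in WT and 35, 39 and 53 in KO. The levels were 0.302 ± 0.136 and 3.44 ± 0.558 CPM, a log2 change of 3.47 ± 0.55 (adjusted p = 0.000453), and all KO libraries lay above all WT libraries. Its neighbour Golph3l, 1263 bp away, fell (log2 change -1.06 ± 0.19, adjusted p = 0.000833), and Ctss on the other side did not pass (0.45 ± 0.39). Hormad2 had 1, 5 and 14 counts in WT and 4, 4 and 5 in KO and was not tested after the filter.

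In the piRNA pathway, Piwil1, the PIWI protein of late spermatogenesis, had 16, 7 and 3 counts in WT and 68, 62 and 84 in KO, or 0.562 ± 0.437 and 5.80 ± 0.486 CPM. The log2 change was 3.35 ± 0.53 (adjusted p = 0.000456). Rnf17, a RING and Tudor-domain protein of germ cells, had 6, 7 and 6 counts in WT and 38, 33 and 27 in KO (log2 change 2.69 ± 0.53, adjusted p = 0.00156). Tdrd9, a piRNA pathway helicase, had 3, 0 and 0 in WT and 8, 15 and 13 in KO, a 15.1-fold ratio with a counting interval of 4.78 to 76.8 (adjusted p = 0.00784). For Tdrd9 the call was lost without WT replicate 2 (0.0570) or 3 (0.0587).

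Other members of that pathway gave a mixed picture. Tdrd1 had 0, 2 and 1 counts in WT and 6, 10 and 9 in KO, and Tdrd12 1, 9 and 5 and 15, 12 and 8. Piwil2, the PIWI protein of earlier stages, had 13, 19 and 25 counts in WT and 49, 15 and 28 in KO (log2 change 1.02 ± 0.54, adjusted p = 0.134). Tdrd5 had 2519, 3233 and 3472 counts in WT and 1917, 2538 and 2076 in KO, which overlapped in CPM (-0.15 ± 0.18). Ddx4, the germ cell RNA helicase VASA, had 7, 2 and 7 counts in WT and 19, 2 and 1 in KO, so a single library was high.

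Tex15 was the 1 tested member that was called lower. It had 26, 41 and 63 counts in WT and 11, 8 and 6 in KO, a log2 change of -2.02 ± 0.55 (adjusted p = 0.00897) with no overlap. Without WT replicate 3, the highest library, the adjusted p was 0.0518. In the libraries with an age its log2 changes, given above, were -0.68 in old WT and -0.46 in the libraries labelled KO, neither past the test.

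Among cohesins, Rec8 had 54, 52 and 42 counts in WT and 151, 99 and 169 in KO, or 3.19 ± 0.409 and 11.3 ± 2.29 CPM (log2 change 1.82 ± 0.29, adjusted p = 0.000483). Of its neighbours, Ipo4 rose as well (1.18 ± 0.22, adjusted p = 0.00106), and Irf9, 8007 bp away, did not pass (0.41 ± 0.18, adjusted p = 0.0807). Whether any Ipo4 reads entered the Rec8 count was not tested. Stag3 had 144, 91 and 95 counts in WT and 261, 227 and 255 in KO (log2 change 1.50 ± 0.25, adjusted p = 0.000561). Its neighbour Gpc2, a glypican gene 235 bp away, fell (-1.31 ± 0.48, adjusted p = 0.0374). Smc1b, the meiotic SMC1 subunit, stayed at 8, 1 and 1 in WT and 7, 1 and 4 in KO. Over the 9 members called higher, 12 of 18 neighbouring genes were tested, of which 2 were called higher and 3 lower.

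In recombination, Dmc1 had 98, 96 and 96 counts in WT and 143, 141 and 156 in KO, tight groups of 6.25 ± 0.146 and 12.0 ± 0.315 CPM (log2 change 0.94 ± 0.23, adjusted p = 0.00583). Msh5 had 100, 110 and 91 in WT and 129, 110 and 151 in KO (0.70 ± 0.25, adjusted p = 0.0298). The Msh5 call was lost with no filter (0.207) and in 5 of the 6 fits without 1 library (0.0653 to 0.114). Its partner Msh4 had 10, 10 and 5 counts in WT and 0, 7 and 0 in KO. Meiob, a single-stranded DNA binding protein, had 6, 1 and 0 and 4, 12 and 20. Spo11 had 4329, 3824 and 3964 counts in WT and 4912, 4062 and 3619 in KO, a log2 change of 0.40 ± 0.17 that missed the threshold (adjusted p = 0.0666) and passed with library size alone (0.0394), with a filter at 1 CPM (0.0468) and without KO replicate 3 (0.00891).

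The rest of the synaptonemal complex was low or overlapped between the groups. Sycp1 and Sycp3 were higher in KO without overlap in CPM, but each had fewer than 5 counts in at least 1 KO library. Sycp3 is also uncertain for the shared bases given above. Syce2 had 188, 197 and 152 counts in WT and 142, 120 and 192 in KO (log2 change 0.08 ± 0.23). Sycp1, the transverse filament protein, had 2, 0 and 0 and 11, 3 and 6. Sycp3 had 0, 1 and 1 and 4, 6 and 3. For Syce1 the counts were 0, 6 and 6 in WT and 1, 2 and 20 in KO, so only replicate 3 was high.

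Regulators and other germ cell proteins also varied by library. Brdt had 518, 560 and 716 counts in WT and 461, 655 and 522 in KO (log2 change 0.22 ± 0.21), and Tex14, an intercellular bridge protein, 13, 18 and 16 and 13, 21 and 17 (0.46 ± 0.53). Stra8, which starts meiosis, had 6, 6 and 3 counts in WT and 5, 5 and 23 in KO. Dazl, a germ cell RNA-binding protein, had 5, 4 and 11 and 1, 3 and 0. Tex11 had 0, 3 and 0 counts in WT and 31, 12 and 0 in KO, with counts in the 2 female KO libraries and 0 in the male one. It was not tested after the filter and was called with no filter (log2 change 3.89 ± 1.18, adjusted p = 0.00443), although the groups overlapped.

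**Figure D5:**
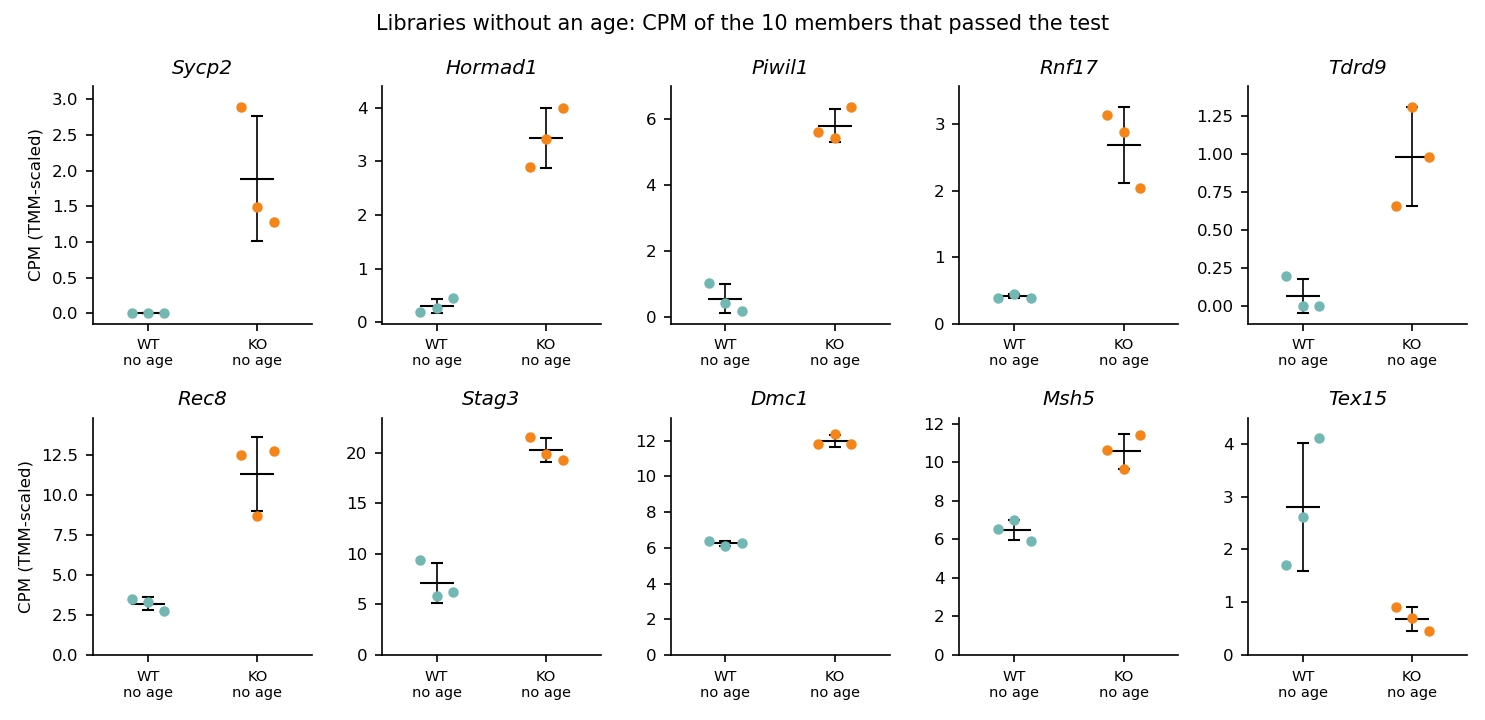
CPM (vertical axes, scaled by TMM, each from 0) in the 3 WT and 3 METTL3 KO libraries without an age for the 10 members that passed the test; points are libraries, long bars the mean and whiskers the SD. All KO libraries lie above all WT libraries for the first 9 genes and below them for Tex15.

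By lack of overlap in CPM, with at least 5 counts in every library of the higher group, 12 members were higher in KO: Sycp2, Hormad1, Piwil1, Rnf17, Tdrd1, Tdrd9, Tdrd12, Stra8, Rec8, Stag3, Dmc1 and Msh5. Tex15 was lower. Of all genes with a count, 20.2% were higher and 15.4% lower by this criterion. Of the 9 members called higher, 8 had a promoter window and 5 of those held an E-box or E2F-type motif (Hormad1, Msh5, Piwil1, Stag3 and Tdrd9), as did 11 of the other 22.

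The 9 members with fewer than 10 counts in every library were Mael, Asz1, Mov10l1, Syce3, Taf7l, Tex101, Tdrd6, Piwil4 and Smc1b. Their largest single counts were 8 in Smc1b and 7 in Piwil4, the latter in 1 KO library without an age. In the libraries with an age, the members that reached 10 counts only without an age stayed low: Dazl did not exceed 5, Ddx4 2, Syce1 8, Stra8 5, Msh4 6, Meiob 2, Tdrd9 3, Tdrd12 3, Rnf17 3, Sycp1 1, Sycp2 1 and Hormad1 1, and Tdrd1 and Piwil1 stayed at 0. Piwil2 and Tex14 lay between them and the middle tier, at 3 to 11 and 1 to 12 counts.

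Genes that stand around this list were read the same way. Of 61 other germline and meiosis genes, 25 were tested without an age, and 9 were called higher and 4 lower (median log2 change -0.04, against 0.08 for all genes). Over all genes tested, 29.9% were called higher and 24% lower, and among those under 1 CPM in WT 73.5% were called higher. Genes whose WT mean lies under the filter's 0.674 CPM can pass it only with the KO libraries. Hsf2bp, a meiotic recombination factor, rose by a log2 change of 5.87 ± 0.92 (adjusted p = 0.000449), Tex13b by 3.45 ± 0.67 and Dnd1, a germ cell RNA-binding protein, by 1.46 ± 0.28. Of 33 somatic paralogs and partners of the meiotic members, 32 were tested, with 1 called higher and 20 lower (median -0.64). Ago2, the somatic relative of PIWI proteins, fell by 1.63 ± 0.17 on the log2 scale, and the mitotic cohesin subunits Stag2 and Rad21 fell by 1.14 ± 0.16 and 1.35 ± 0.20, opposite in sign to Stag3 and Rec8. Mov10, the relative of Mov10l1, rose by 1.22 ± 0.17.

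Of 31 repressors of germline genes, all were tested without an age, with 3 called higher and 12 lower (median -0.32). Cbx3 and Cbx5, heterochromatin proteins, fell by 1.50 ± 0.19 and 1.22 ± 0.16 on the log2 scale, and Mga, of the Polycomb complex named above, by 1.31 ± 0.20. Zfp57, a zinc finger protein that maintains methylation at imprinted loci, rose by 4.39 ± 0.65. Over all genes tested, 24% were called lower, and 36.1% of those at 5 CPM or more in WT. With an age, no gene of these 3 lists was called by edgeR, DESeq2 or limma-voom in old WT or in the libraries labelled KO, and their medians lay between -0.10 and -0.01. At an unadjusted p under 0.05 in edgeR stood 6 of 31 paralogs, 6 of 30 repressors and 2 of 17 other germline genes in old WT, where 12.1% of all genes tested did. The young libraries labelled KO had 0, 0 and 1 at that p, against 0.619% of all genes.

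Several measures moved with the KO label in the libraries without an age. The share of no-feature reads and the number of genes with a count, given above, were higher in KO. The DP markers Rag1, Themis and Rag2 were lower (log2 changes -2.44, -1.40 and -1.25). Of 8 B cell markers 7 were called higher, with summed levels of 704 to 1147 CPM against 529 to 627 in WT and no marker at 0 throughout either group. The 11 thymic epithelium markers summed to 51.4 to 81.2 CPM against 41.1 to 53.7, with Fezf2 and Krt5 at 0 in every WT library. The 7 myeloid markers summed to 16.8 to 21.8 CPM against 7.77 to 13.1. The part of each in the rises of the germline genes was not tested. Sex and genotype were partly confounded. All WT libraries were male, so a sex covariate can be estimated within KO alone. The contrast then rests on 1 male KO library, replicate 3, and its calls cannot show that sex plays no part.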

How the data were processed

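The authors deposited 1 table of raw read counts per gene for each of 16 libraries. The submitters' processing notes name HISAT2 2.0.5 and the mm10 build. How reads were counted, with which annotation and whether by strand, is not given in the sources used here. Lines that name no gene were left out of library sizes, and their shares are given in the report. Groups came from the labels. Of the identifiers, 55154 of 55335 with an age and 54409 of 54532 without one matched the gene name table.

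Counts were fitted over all genes with edgeR 4.0.16 (R 4.3.3, quasi-likelihood test, TMM scaling, filterByExpr with a minimum count of 10, Benjamini-Hochberg adjustment, threshold 0.05), separately for the 10 libraries with an age (3 groups in 1 fit) and the 6 without. CPM are counts scaled by TMM. Alternatives used DESeq2 1.42.0, limma 3.58.1, other scalings, other filters, a replicate block, sex and fits without each library. The script was tested on simulated data. Counting intervals and limits (exact, 95%, or 3 counts) cover counting error only. Sequences are RefSeq's (GRCm38.p6), and exons GENCODE's for mm10.

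The text gives values per library for members tested, called, non-overlapping or with at least 10 counts in a library, others by range, and up to 4 genes of each further list by call or smallest p. Members and lists were chosen with earlier results of these data known. Replicate libraries differed by more than sampling noise, so none was counted as a duplicate. Windows and sequences of the 7 other members were not used here.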

Additional observations from a re-analysis of the deposited data

Results flagged for a closer look

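Within the 4 old WT libraries, Sycp3 had 9, 9, 8 and 6 counts, and the gap of replicate 4 to the next library, in CPM, was 0.897 of the group's range. Brdt had 364, 351, 217 and 381 counts, and the gap of replicate 3 was 0.851 of the range. In normally spread values such a gap comes up by chance in about 1 in 20 groups, and 11 groups were checked. Counts as low as those of Sycp3 need not follow that rate.

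Rec8 had a log2 change of -1.29 in the young libraries labelled METTL3 KO, with every library below young WT, and of 1.82 in METTL3 KO without an age, with every library above WT. Msh5 had -0.39 and 0.70 in the same way. The difference between the sets of libraries was not tested.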

How the results depend on the processing

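The count of members called in old against young WT was 1, and 3 with no filter on low counts, 3 with DESeq2 and 0 when the 2 groups were fitted alone; without 1 library it ran from 0 to 2. In the young libraries labelled KO it was 0, 1 with no filter, and 0 to 0 without 1 library. Without an age it was 10, and 7 to 11 without 1 library. Same-numbered libraries deviated from their group means with correlations of -0.263 to 0.0933, and other-numbered ones with -0.229 to 0.36. These few values gave no sign that the numbers pair the samples, but they cannot exclude it. With the replicate block 2 members passed in old against young WT (Tex11 and Rec8). Over all genes there were 36 calls without the block and 61 with it.

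Signs turned only for changes that passed no test. With the replicate block, old against young WT gave 0.071 for Msh5 and -0.0087 for Spo11. Without 1 library, the log2 changes ran from -0.16 to 0.072 in Msh5 and from -0.0091 to 0.25 in Spo11 for old against young WT. In the young libraries labelled KO they ran from -0.24 to 0.012 in Dmc1, from -0.50 to 0.095 in Stag3, from -0.18 to 0.021 in Syce2 and from -0.49 to 0.22 in Sycp3. Without an age they ran from -0.081 to 0.32 in Brdt and from -0.13 to 0.095 in Syce2, which was -0.11 with no filter. The cause was not tested.

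Members detected per library averaged 13.7, 12.8, 12.7, 18.7 and 23.3 (young WT, old WT, young labelled KO, WT and KO without an age) at 5 counts. The averages were 23, 20, 21.3, 26 and 29.7 at 1 count, 17.3, 14, 16.3, 21.3 and 26 at 3, and 11.3, 9.5, 9.67, 12.7 and 18.7 at 10. After thinning, WT and KO without an age had 14.3 and 21.7. Summed CPM before TMM scaling were 398, 438, 382, 525 and 685 over the members, and 239, 252, 227, 332 and 499 without those that overlap another gene. Counts under 10 in a library leave most members without a usable fold.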
